A study of Rattus norvegicus with 16 samples.

Results

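The 7 genes described here encode secreted host-defense proteins and were followed in the liver of septic and control rats. They are Reg3a, Reg3b and Reg3g, Ptx3, Lcn2, Pglyrp1 and Camp, 7 of the 17055 gene symbols with a read count in every library. They were picked by name with measured values of these same libraries already known, in which they stood higher after sepsis, so the rise itself is given below as a description without a test. The question by which they were not picked is whether the anesthetic went with a different level or a different response. Comparisons with each other, with related genes and with markers of other cells draw on the same sepsis contrasts. The lists for them were chosen with earlier results of these data known.

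Liver RNA came from male Sprague-Dawley rats aged 10 weeks, 48 in all. In the groups Isoflurane + sepsis (libraries 1 to 4) and Propofol + sepsis (libraries 9 to 12) the cecum was ligated and punctured. In the control groups Isoflurane (libraries 5 to 8) and Propofol (libraries 13 to 16) the abdomen was opened under the same anesthesia. There the cecum was taken out and put back at once, without ligation or puncture. Livers were taken 8 h after surgery and each library was made from the tissue of 3 rats, so every group had 4 libraries and the spread given below is a spread between pools. Isoflurane rats were induced and kept on isoflurane, while propofol rats were induced with ketamine and xylazine and kept on propofol, so that any difference between anesthetics also holds the induction drugs. The libraries of each anesthetic were also deposited under a different style of name. The labels do not say whether they were prepared as separate sets, and such a difference could not be told apart from anesthetic.

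The libraries held between 14199422 and 49937173 reads on genes. Values are given as raw reads or as CPM, the usual read count scaled to library size, here with TMM factors that set most genes level between libraries. Albumin took 5.61% to 9.03% of the reads on genes, so all libraries carried the defining hepatocyte transcript. A liver homogenate holds several cell types, and more cells of a type and more RNA per cell cannot be told apart in these values. Reg3a and Reg3b are close paralogs, and the sources used here do not say how the counting treated reads that match both, so their division is uncertain.

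As background, the Reg3 proteins are small secreted C-type lectins that bind bacterial cell walls and are best known from gut epithelium and the inflamed pancreas, where cytokines acting through STAT3 induce them. Pentraxin 3, encoded by Ptx3, is the long pentraxin, made locally by myeloid and endothelial cells in response to interleukin-1, TNF and microbial products, and it marks microbes for complement and phagocytes. Lipocalin 2, encoded by Lcn2, withholds iron from bacteria by binding their siderophores and is made in quantity by hepatocytes during infection as well as by neutrophils. Pglyrp1, a peptidoglycan recognition protein, and Camp, the cathelicidin peptide precursor, are stored in neutrophil granules.

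The stretches around 5 transcription starts are shown, those of the Reg3 genes because these are neighboring paralogs that stood higher together, and those of Ptx3 and Lcn2 because they stood higher in the same libraries. Each runs 5′ to 3′ from 250 bases before the start to 50 bases after it, from RefSeq on the rat build GRCr8 (the submitters' processing notes name the older build rn5 for the counts). Reg3a lies at chr4:112430147-112430446 on the plus strand, Reg3b at chr4:112419526-112419825 on the plus strand, Reg3g at chr4:112484689-112484988 on the minus strand, Ptx3 at chr2:152797313-152797612 on the plus strand and Lcn2 at chr3:36081731-36082030 on the minus strand. Capitals mark matches to 5 motifs, which were chosen after the sequences had been seen: TTCNNNGAA (STAT), CTGGGA (the type 2 interleukin-6 response element), TTGCNNAA (C/EBP), GGGA followed by any 4 bases and CC (NF-kappaB), all on both strands, and TATAAA on the strand of the gene.
Reg3a: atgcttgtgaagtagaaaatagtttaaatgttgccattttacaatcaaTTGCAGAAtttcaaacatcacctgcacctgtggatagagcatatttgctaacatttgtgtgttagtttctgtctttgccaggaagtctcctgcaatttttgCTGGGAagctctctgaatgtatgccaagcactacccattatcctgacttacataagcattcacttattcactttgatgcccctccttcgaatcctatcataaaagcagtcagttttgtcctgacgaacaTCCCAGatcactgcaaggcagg
Reg3b: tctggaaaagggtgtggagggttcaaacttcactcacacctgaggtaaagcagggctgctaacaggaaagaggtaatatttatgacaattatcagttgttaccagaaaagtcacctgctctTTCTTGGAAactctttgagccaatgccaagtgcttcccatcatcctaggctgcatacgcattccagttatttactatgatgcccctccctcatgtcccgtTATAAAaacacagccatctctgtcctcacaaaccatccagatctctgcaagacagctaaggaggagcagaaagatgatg
Reg3g: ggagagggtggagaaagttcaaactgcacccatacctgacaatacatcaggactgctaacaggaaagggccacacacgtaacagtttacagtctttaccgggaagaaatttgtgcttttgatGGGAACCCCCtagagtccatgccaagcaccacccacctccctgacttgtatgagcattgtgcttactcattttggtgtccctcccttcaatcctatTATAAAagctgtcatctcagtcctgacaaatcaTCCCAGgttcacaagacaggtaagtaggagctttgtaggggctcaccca
Ptx3: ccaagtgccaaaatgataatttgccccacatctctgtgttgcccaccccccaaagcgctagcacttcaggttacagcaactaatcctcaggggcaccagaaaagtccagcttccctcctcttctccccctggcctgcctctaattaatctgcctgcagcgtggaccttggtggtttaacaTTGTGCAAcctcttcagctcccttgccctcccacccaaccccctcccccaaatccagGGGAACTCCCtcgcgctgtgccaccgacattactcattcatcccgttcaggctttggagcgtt
Lcn2: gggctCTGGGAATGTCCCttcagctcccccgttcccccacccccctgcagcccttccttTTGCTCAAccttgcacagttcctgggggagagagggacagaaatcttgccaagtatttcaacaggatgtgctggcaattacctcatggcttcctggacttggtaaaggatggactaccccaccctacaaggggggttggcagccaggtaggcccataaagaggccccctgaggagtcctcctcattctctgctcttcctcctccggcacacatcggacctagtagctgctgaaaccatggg

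Reg3b and Reg3g share TATAAA, 29 and 32 bases before the start, a motif held by 9.08% of 27457 rat promoters of the same length. Reg3b alone of the 7 members has a STAT match, 129 bases before the start, against 8.68% of all promoters. The C/EBP match is in Reg3a, Ptx3 and Lcn2 and in 10.5% of promoters, and CTGGGA is in Reg3a, Reg3g and Lcn2 and in 30.4%. The NF-kappaB match is in Reg3g, Ptx3, Lcn2, Pglyrp1 and Camp and in 19.6% of promoters, and in Lcn2 it overlaps CTGGGA in a single run of capitals. Over their aligned bases the promoters of Reg3a and Reg3b were 72.7% identical, those of Reg3a and Reg3g 73.3% and those of Reg3b and Reg3g 69.4%, where the other pairs of members lay between 55.9% and 71.4%. The 3 Reg3 genes are neighbors on chromosome 4, with Reg1a between Reg3a and Reg3g. A match is a string of letters and not a measured binding site.

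Reg3b took most of the Reg3 reads. In Isoflurane + sepsis it had 500, 335, 205 and 388 reads in libraries 1 to 4, against 14, 14, 11 and 26 in Isoflurane. In Propofol + sepsis it had 272, 272, 645 and 678 reads, against 22, 13, 38 and 31 in Propofol. Every septic library lay above every control library of its anesthetic. The group means were 20.2 ± 6.50 CPM (SD, n = 4) in Isoflurane + sepsis, 0.601 ± 0.0883 in Isoflurane, 20.9 ± 9.54 in Propofol + sepsis and 1.37 ± 0.442 in Propofol. The log2 fold change of sepsis against control was 5.08 (SE 0.32) under isoflurane and 3.91 (SE 0.37) under propofol.

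Reg3a was nearly silent without sepsis. The control libraries held 0, 1, 1 and 2 reads under isoflurane and 1, 0, 2 and 1 under propofol. After sepsis there were 112, 83, 38 and 59 reads under isoflurane and 72, 54, 189 and 176 under propofol, with no overlap of septic and control CPM values. Summed over a group and scaled by depth, septic reads were 113.5 times control reads under isoflurane (exact 95% interval 43.8 to 419.2) and 101.9 times under propofol (39.6 to 375.5). These intervals cover counting error only, and 4 control reads in each anesthetic set their width. The fitted log2 fold changes were 6.63 (SE 0.90) and 6.53 (SE 1.01), the first moving to 7.23 when all libraries were thinned to the depth of the shallowest.

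Reg3g was the least abundant of the 3 by reads. It had 19, 11, 2 and 25 reads in Isoflurane + sepsis and 0, 1, 0 and 5 in Isoflurane, and the groups overlapped because library 3 at 0.104 CPM fell just below library 8 at 0.1042 CPM. In Propofol + sepsis it had 22, 14, 36 and 39 reads and in Propofol 0, 0, 4 and 2, without overlap. Reg3g was too low under isoflurane to pass the filter on low counts, and its ratio of summed reads there was 14.8 (exact 95% interval 6.38 to 41.9). Under propofol the log2 fold change was 3.87 (SE 0.78), and 4.86 without library 15, which held 4 of the 6 control reads.

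Ptx3 had at most 8 reads in any control library and at least 77 in any septic library. It had 154, 82, 88 and 193 reads in Isoflurane + sepsis and 4, 2, 4 and 8 in Isoflurane, and 77, 98, 98 and 170 in Propofol + sepsis against 0, 5, 2 and 1 in Propofol. No septic library overlapped a control library. The septic means were 7.30 ± 3.20 and 4.88 ± 0.409 CPM, with the smaller SD under propofol. The log2 fold changes were 5.45 (SE 0.49) and 5.42 (SE 0.56), the second rising to 6.40 without library 14, which held 5 of the 8 control reads.

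Lcn2 had by far the most reads of the 7, although transcript length was not available to compare levels between genes. Its CPM was 1387, 1183, 1296 and 1975 in Isoflurane + sepsis, and 184.4, 144.9, 177.8 and 130.8 in Isoflurane. It was 1925, 1103, 3241 and 2720 in Propofol + sepsis, and 620.3, 365.4, 410.0 and 500.6 in Propofol. Septic and control libraries did not overlap, nor did the control groups of the anesthetics overlap with each other. The log2 fold changes were 3.20 (SE 0.17) under isoflurane and 2.24 (SE 0.29) under propofol.

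Pglyrp1 and Camp, the neutrophil granule members, stayed below 2 CPM in every library. Pglyrp1 had 17, 24, 33 and 27 reads in Isoflurane + sepsis and 8, 16, 10 and 24 in Isoflurane, with means of 1.43 ± 0.396 and 0.533 ± 0.180 CPM that did not overlap by library. Under propofol it had 13, 16, 22 and 19 reads after sepsis and 14, 5, 10 and 4 in controls, and the groups overlapped through library 13. Its log2 fold changes were 1.43 (SE 0.31) and 0.82 (SE 0.44). Camp had 7, 16, 31 and 13 reads in Isoflurane + sepsis against 1, 3, 0 and 3, and 14, 9, 8 and 17 in Propofol + sepsis against 1, 0, 1 and 1. It passed the filter on low counts in neither anesthetic, its groups did not overlap, and the ratios of summed reads were 14.9 (exact 95% interval 6.84 to 38.4) and 13.3 (4.28 to 66.7).

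**Figure D1:**
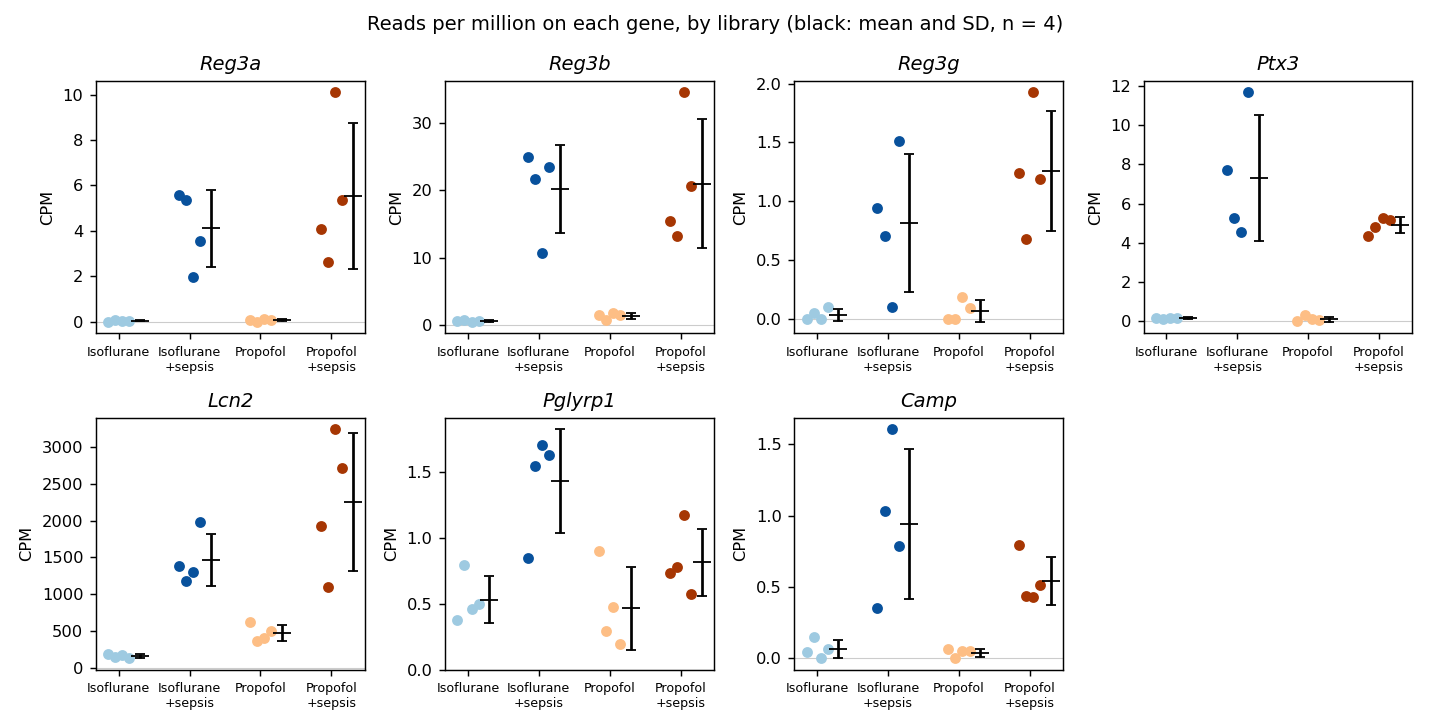
Each panel plots the CPM of 1 gene on its own linear axis, with 1 point per library and the group mean and SD (n = 4) in black. Septic points stand above the controls of the same anesthetic except for Reg3g under isoflurane and Pglyrp1 under propofol, where single libraries overlap.

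Of the 7 members, 5 passed the filter under isoflurane and 6 under propofol, and 5 were called higher in each (adjusted p below 0.05, edgeR quasi-likelihood test). Over all genes tested, 50% were called in either direction and 25.7% higher under isoflurane, and 42.1% and 20.4% under propofol. The share of all genes without overlap between septic and control libraries was not counted. Since the members were chosen on this contrast, nothing is read from their count or from their lack of overlap.

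**Figure D2:**
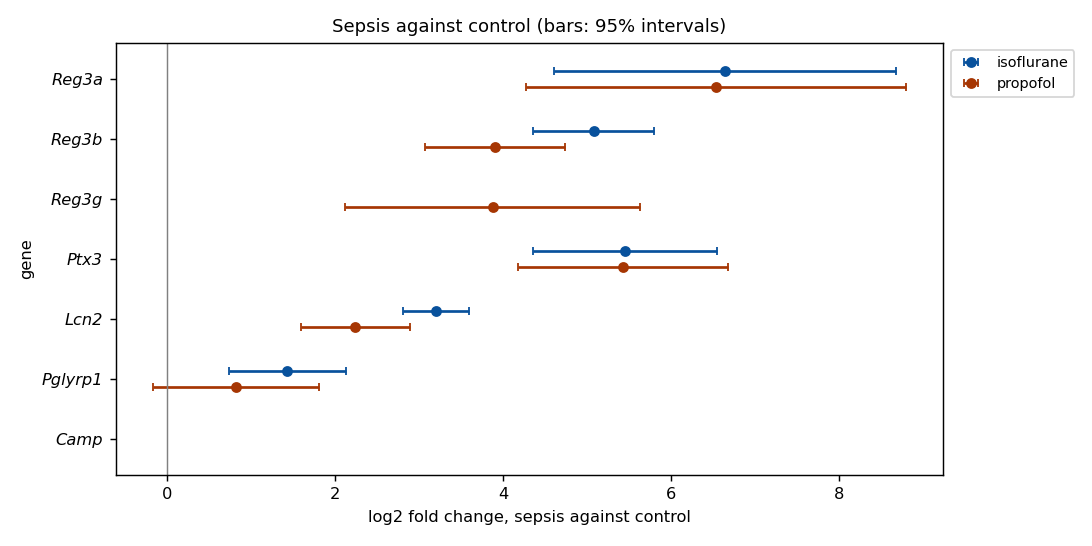
Points give the log2 fold change of sepsis against control for each member under isoflurane and under propofol, with 95% intervals over 4 libraries against 4. Reg3a and Ptx3 lie at nearly the same value in both anesthetics, while the Reg3b and Lcn2 points lie further right under isoflurane. Camp in both anesthetics and Reg3g under isoflurane have no point because they did not pass the filter on low counts.

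The response to sepsis was then compared between the anesthetics, a contrast by which the members had not been chosen. None of the 7 members passed the interaction test of edgeR, which called 2.72% of all genes tested, and limma-voom and DESeq2 called none of them either. At an unadjusted p below 0.05 there were 2, Lcn2 and Reg3b, both with the larger rise under isoflurane. Lcn2 rose by 0.95 log2 more under isoflurane (95% interval 0.16 to 1.75, edgeR adjusted p = 0.149), and Reg3b by 1.17 more (-0.01 to 2.34, adjusted p = 0.214). For Reg3a the difference was 0.08 (-3.0 to 3.17), for Ptx3 0.01 (-1.64 to 1.67), for Reg3g -0.05 (-3.07 to 2.97), for Pglyrp1 0.60 (-0.59 to 1.79) and for Camp 0.21 (-2.24 to 2.67). Control libraries held at most 5 reads of Reg3a, Reg3g or Camp, and a difference of several fold in either direction was not detectable at this depth for Reg3a, Reg3g and Camp.

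The control livers differed in Lcn2. It averaged 159.5 ± 25.8 CPM in Isoflurane and 474.1 ± 113 CPM in Propofol, a log2 difference of -1.57 (SE 0.27, 95% interval -2.14 to -1.01, edgeR adjusted p = 0.000788), with all 4 isoflurane libraries below all 4 propofol libraries. It was the only member called, where 26.3% of all genes were called between the control groups. Reg3b was also lower in every Isoflurane library than in any Propofol library, with a log2 difference of -1.22 (-2.23 to -0.21) that missed the threshold (adjusted p = 0.0664). The share of all genes that separate the control groups in this way was not counted, so nothing is read from the separation of Lcn2 or Reg3b. Reg3b did pass with DESeq2 (adjusted p = 0.00919), with scaling by library totals (0.0349), when only the control libraries were fitted (0.00376), and in edgeR without library 3 (0.0350), 11 (0.0274) or 14 (0.0499). The other 5 members had adjusted p-values of 0.586 and above. The summed neutrophil and monocyte markers were 25.9 to 29.8 CPM in Isoflurane and 33.5 to 43.1 CPM in Propofol, and their part in the Lcn2 difference was not tested.

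Between the septic livers no member passed the edgeR test, nor DESeq2 or limma-voom, where edgeR called 38.6% of all genes. At an unadjusted p below 0.05 there were 2, Lcn2 and Pglyrp1. Lcn2 was lower in Isoflurane + sepsis by a log2 difference of -0.62 (-1.18 to -0.06, adjusted p = 0.0747). This passed with scaling by library totals (-0.77, adjusted p = 0.0287), without library 4 (-0.80, 0.0358) and without library 10 (-0.85, 0.00636). Pglyrp1 was higher in Isoflurane + sepsis by 0.82 (0.05 to 1.60, adjusted p = 0.0860) and Camp by 0.80 (-0.12 to 1.72, adjusted p = 0.154), and both passed without library 1, at 1.01 (adjusted p = 0.0381) and 1.08 (0.0374). Ptx3 differed by 0.57 (-0.02 to 1.17), Reg3a by -0.43 (-1.21 to 0.35), Reg3b by -0.06 (-0.65 to 0.54) and Reg3g by -0.63 (-1.84 to 0.59). For Reg3b the interval leaves room for less than a log2 unit in either direction.

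**Figure D3:**
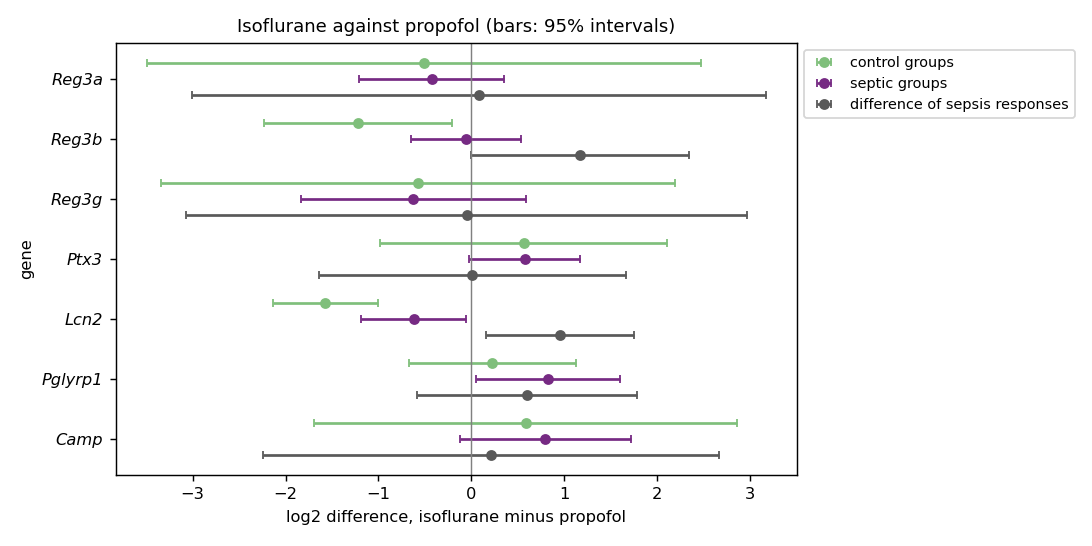
Points give log2 differences of isoflurane minus propofol with 95% intervals, for control groups, for septic groups and for the difference between the sepsis responses. Only the Lcn2 point of the control groups, at -1.57, passed the adjusted threshold, and the intervals of Reg3a, Reg3g and Camp are the widest wherever control libraries enter.

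The division of Reg3 reads among the 3 genes was measured within each library, where scaling between libraries has no part. In septic livers Reg3b held 80.8 ± 2.58% of Reg3 reads under isoflurane and 76.1 ± 2.73% under propofol, a difference of 4.71 percentage points (exact permutation test, two-sided, p = 0.0857, adjusted over the 3 genes 0.143). Reg3a held 16.3 ± 2.97% and 19.3 ± 2.44% (exact permutation p = 0.143), and Reg3g 2.92 ± 1.85% and 4.66 ± 0.909% (exact permutation p = 0.143), against a smallest possible p of 0.0286. Library 3, with 245 Reg3 reads, had the lowest Reg3g share at 0.816%, with an exact binomial 95% interval of 0.0990% to 2.92%. Control libraries held only 12 to 44 Reg3 reads each. Pooled, Reg3a made up 5.33% of 75 reads in Isoflurane and 3.51% of 114 reads in Propofol, against 16.4% of 1777 and 19.9% of 2469 after sepsis, given here as a description. Summing Reg3a and Reg3b gave log2 fold changes of 5.26 under isoflurane and 4.19 under propofol. The sum does not depend on how the counted reads were divided between them. Whether reads that match both were counted at all is not known.

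**Figure D4:**
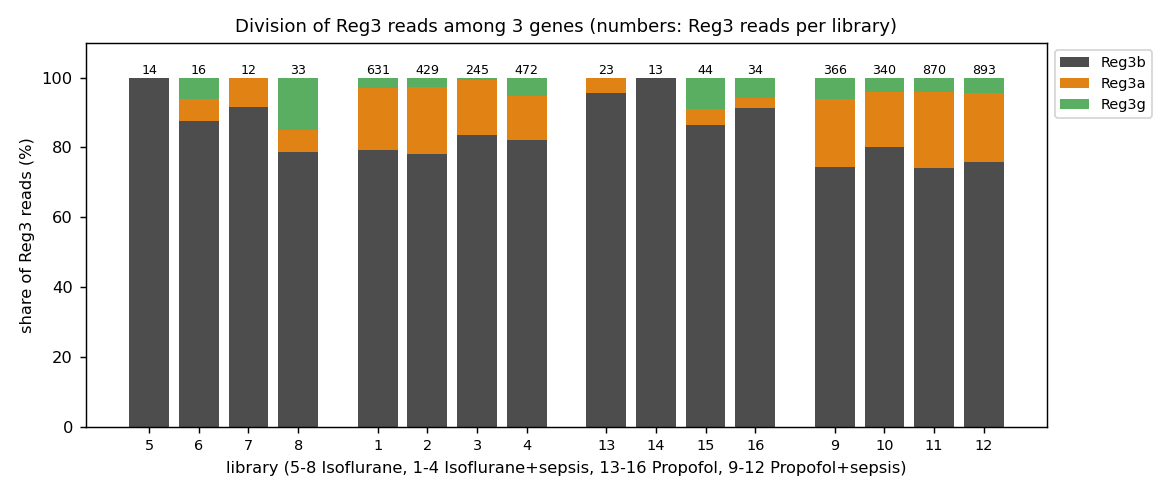
Stacked bars show the percent of Reg3 reads on Reg3b, Reg3a and Reg3g in each of the 16 libraries, with the number of Reg3 reads above each bar. Septic bars, on 245 to 893 reads, are alike with Reg3b between 74.1% and 83.7%, while control bars rest on 12 to 44 reads.

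Within the septic groups the members did not all vary together from pool to pool. In Isoflurane + sepsis, library 3 had the lowest Reg3a, Reg3b, Reg3g and Ptx3 of its group, at log2 ratios to the group mean of -1.07, -0.92, -2.98 and -0.68. The same library had the highest Camp (0.77) and Pglyrp1 (0.25) and the highest neutrophil and monocyte marker sum, 149.2 CPM. Library 1 was the reverse for the granule genes, with the lowest Camp (-1.43), the lowest Pglyrp1 (-0.76) and the lowest marker sum, 56.7 CPM, beside the highest Reg3a and Reg3b. In Propofol + sepsis, library 11 had the highest Reg3a, Reg3b, Reg3g, Ptx3, Lcn2 and Pglyrp1, with a marker sum of 64.5 CPM inside the group's range of 58.4 to 79.7 CPM. Library 10 had the lowest Reg3a, Reg3b, Reg3g and Lcn2 and the highest marker sum. Camp did not follow the marker sum there, with a log2 ratio of -0.31 in library 10, its lowest value of -0.35 in library 11 and its highest of 0.54 in library 9. With 4 pools a group these orders are a description.

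**Figure D5:**
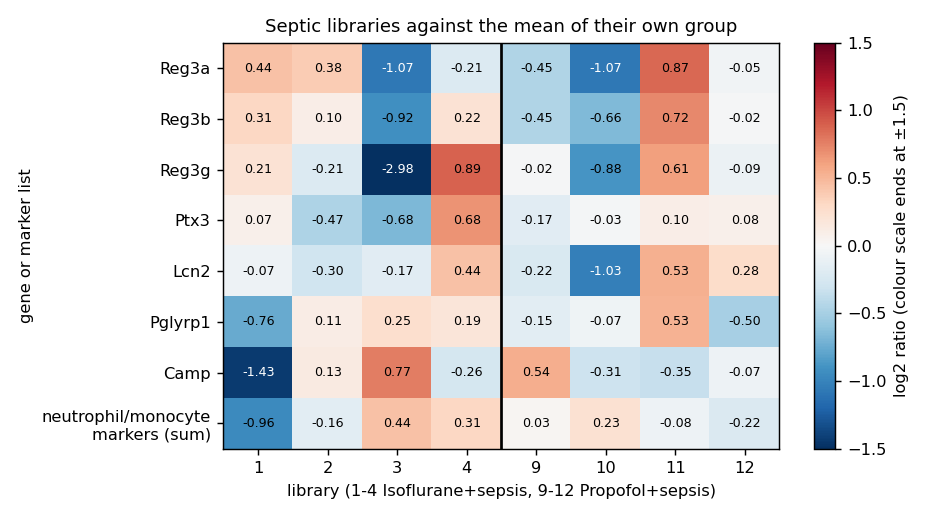
Each cell gives the log2 ratio of a septic library to the mean of its own group, for the 7 members and for the summed CPM of the neutrophil and monocyte markers. Libraries 1 and 3 run in opposite directions for the Reg3 genes and for Camp, and library 3 has the lowest Reg3g at -2.98.

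Markers of other cells were counted beside the members. The shares to set beside these counts are 50% called and 25.7% higher over all genes tested under isoflurane, and 42.1% and 20.4% under propofol. Of 15 neutrophil and monocyte markers, 14 were found and 12 tested, of which 10 were higher under isoflurane and 8 under propofol. Their summed level was 56.7 to 149.2 CPM in Isoflurane + sepsis against 25.9 to 29.8 in Isoflurane, and 58.4 to 79.7 in Propofol + sepsis against 33.5 to 43.1 in Propofol, and their part in the members' rise was not tested. A large part of this sum was S100a8 and S100a9, with means of 26.1 and 33.5 CPM in Isoflurane + sepsis and 4.7 and 8.5 in Isoflurane. Under propofol these means were 13.1 and 17.0 CPM after sepsis and 6.1 and 10.3 in controls. Among genes of granulocyte precursors only Ngp, a neutrophil granule protein related to Camp, was tested, and it rose with log2 fold changes of 5.84 (edgeR adjusted p = 0.000209) and 4.66 (9.78e-05). Mpo, Elane, Prtn3, Ctsg and Ltf, which encode other granule proteins, had 0 to 3 reads in any group, septic or control. Of the genes that mark pancreatic acinar cells, Prss1 and Clps had 0 reads in all groups, and the summed acinar list lay between 4.11 and 8.39 CPM throughout, most of it Cela1. Others of that list had reads and went both ways. Ctrc averaged 0.377 CPM in Isoflurane + sepsis and 0.130 in Isoflurane, and 0.276 and 0.114 under propofol. Cpb1 averaged 0.219 and 0.556 CPM under isoflurane and 0.357 and 0.602 under propofol. Neither passed the filter on low counts in the sepsis contrasts. Of 8 Kupffer cell markers tested, 5 were higher and 1 lower under isoflurane and 2 higher and 1 lower under propofol. Of 10 hepatocyte markers, 1 was higher and 4 lower under isoflurane and 1 higher and 2 lower under propofol, and of 10 endothelial and stellate markers 1 was higher and 4 lower, and 2 higher and 4 lower. Of 5 bile duct markers 3 and 1 were higher, and of 3 lymphocyte markers 2 were higher under isoflurane and 1 was lower under propofol. Of 3 intestinal epithelium markers tested, Lct (lactase) was higher, by 1.30 (edgeR adjusted p = 0.0124) and 1.26 (0.0286), and Fabp2 (the intestinal fatty acid binding protein) lower, at -1.53 (0.00153) and -1.96 (0.00497). Apoa4, which liver also expresses, was lower under isoflurane at -0.72 (0.00679) and stood at -0.23 (0.355) under propofol. The part of these cell types in the members' values was not tested.

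Related defense genes were counted from lists of other family members and partners, written with earlier results of these data known. Each gene of these lists said to be higher or lower, to have risen or to have fallen passed the edgeR test. In the sepsis contrasts those named had adjusted p-values from 2.52e-05 to 0.00736. The shares to set beside the list counts are those of all genes tested, 25.7% higher and 50% called in all under isoflurane, and 20.4% and 42.1% under propofol. Among 13 measured other REG proteins and host-defense lectins, 6 were tested under isoflurane and 1 was higher, Lgals3 (galectin-3) at a log2 fold change of 0.94, with 0.26 under propofol (adjusted p = 0.104). Under propofol 7 were tested and 1 was lower, Colec10 (a collectin) at -0.66, with -0.17 under isoflurane (adjusted p = 0.165). Reg1a, the neighbor of the Reg3 genes, had 0 reads in both control groups and 7 and 22 reads in Isoflurane + sepsis and Propofol + sepsis. Reg4, of the same family, went the other way. It averaged 0.116 CPM in Isoflurane + sepsis and 0.418 in Isoflurane, and 0.342 in Propofol + sepsis and 0.499 in Propofol. Neither gene passed the filter on low counts. Of 4 other pentraxins tested only Nptx2, a neuronal pentraxin, was higher, by 3.06 and 3.42. The lists' median log2 fold changes were -0.09 and -0.04 for the lectins and 0.43 and 1.02 for the pentraxins, beside 0.01 and 0.00 over all genes tested.

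Of 3 other binders of bacterial wall products tested, 2 were higher in both anesthetics. Cd14, the lipopolysaccharide co-receptor, rose by 2.83 and 1.76, and Lbp, which hands lipopolysaccharide to it, by 1.58 and 1.19. Among 13 other antimicrobial proteins tested, 9 were higher and 1 lower under isoflurane and 8 higher and 3 lower under propofol, with medians of 1.34 and 0.71, where 25.7% and 20.4% of all genes were higher. Slpi, a protease inhibitor with antimicrobial activity, rose by 3.01 under isoflurane and 1.05 under propofol. S100a8, a calprotectin subunit that also stands in the neutrophil list, rose by 2.49 and 1.09, and the secreted phospholipase Pla2g2a by 1.93 and 1.33.

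Among the cytokines, receptors and factors known to induce the members, 9 of 14 tested were higher and 2 lower under isoflurane, and 8 of 13 were higher under propofol, where 25.7% and 20.4% of all genes were higher. Il1b rose by 3.70 and 2.36, Cebpd, a C/EBP factor of the acute phase, by 1.60 and 1.93, Tnf by 4.04 and 1.91, and the oncostatin M receptor Osmr by 1.16 and 0.63. Il6 had 200 reads over Isoflurane + sepsis and 7 over Isoflurane and rose by 5.41, while under propofol it had 66 and 3 reads and did not pass the filter on low counts. Between the septic groups Il6 was higher by 1.91 in Isoflurane + sepsis (edgeR adjusted p = 0.00310), while Tnf was lower there, at -0.83 (0.0259). Il22, a main inducer of Reg3 genes in gut, had 3 reads over Isoflurane + sepsis, 1 over Propofol + sepsis and 0 in controls, and Il17a had 0 reads in all groups. Of 12 binding partners and receptors tested, 5 were higher and 2 lower under isoflurane and 4 and 1 under propofol, close to the shares of 50% and 42.1% of all genes called. Tnfaip6, a binding partner of pentraxin 3, rose by 3.83 and 2.45, and Selp (P-selectin), which also binds it, by 3.59 and 2.02. Lrp2 (megalin), a receptor for lipocalin 2, fell by 1.79 and by 0.77 on the log2 scale.

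The genes whose log2 CPM ran most like each member over the 16 libraries are given as a description, since the points fall into septic and control libraries and share their scaling. Reg3a ran most like Cers2 (r = 0.985), Reg3b (0.984), Sod2 (0.978), Tifa (0.977) and Serpinb2 (0.975), and Reg3b most like Reg3a, Sod2 (0.983), Car4 (0.980), Ccl3 (0.976) and LOC681325 (0.975). Reg3g ran most like Slc11a2 (0.955), Cers2 (0.954), Il18bp (0.932), Reg3a (0.923) and Traf3 (0.920). Ptx3 ran most like Tifa (0.982), Chmp1b (0.972), Ccl7 (0.972), Ctsb (0.969) and Adam9 (0.967). Lcn2 ran most like Tnf (0.967), followed by Nup93 (0.966), Ptma (0.965), Tlr2 (0.959) and Ccl3 (0.958). Tnf stood at 0.0801 ± 0.0440 CPM in Isoflurane, 0.656 ± 0.172 in Propofol, 1.42 ± 0.332 in Isoflurane + sepsis and 2.50 ± 0.808 in Propofol + sepsis, the same order of groups as Lcn2. Pglyrp1 ran most like Fbxo42 (0.936), Zfp131 (0.915), Rab8b (0.913), Gmip (0.912) and Lmbr1l (0.907), and Camp most like Nos2 (0.962), Nup155 (0.956), Psd4 (0.956), Rgs2 (0.953) and Rgs4 (0.953).

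Over the 8 septic libraries alone the leading genes were others, with the exception of Traf3 for Reg3g. Reg3a then ran most like Rnf151 (0.962), Reg3b like Cers2 (0.955), Ptx3 like Calu (0.974), Lcn2 like Bcas3 (0.994), Pglyrp1 like Fam129b (0.979) and Camp like Phlda3 (0.985). Traf3 (0.978) was among the 5 leading genes of Reg3g.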

How the data were processed

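Liver RNA of 16 pools of 3 rats was sequenced from polyadenylated RNA, directional and from 1 end. Per the submitters' processing notes the tools include STAR and the build is rn5, and the sources used here do not name the counting program or the annotation. The authors deposited raw read counts per gene symbol for each library, without normalization. Entries that name no gene (21.6% to 25.4% of reads outside genes and 1.07% to 1.35% ambiguous) were left out.

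Groups were taken from the labels. Counts were fitted in R 4.3.3 with edgeR 4.0.16 (quasi-likelihood test), with TMM scaling, filterByExpr (minimum count 10, minimum total 15) and Benjamini-Hochberg adjustment over all genes tested, called below 0.05. Sepsis was compared with control in separate fits of 4 against 4 libraries. The interaction and the anesthetic contrasts came from 1 fit of all 16, with isoflurane minus propofol as the sign. The Reg3 shares were compared by an exact permutation test over libraries. Ratios of summed reads and shares carry exact 95% intervals for counting error only. Each fit was tested on simulated data. Pairs of libraries of 1 group differed by a chi-square of 3.47 to 101.7 per degree of freedom, so none was counted as a repeat. The labels do not say that pools came from separate experiments.

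The members, lists and tests were chosen with earlier results of these data known. Named genes are all members, the 3 list genes of smallest adjusted p per list and anesthetic, genes of the lists of related genes called in the interaction, and the 5 genes most correlated with each member, of which 1 is not reported here and, over the septic libraries, mainly the first is given. Reg1a, Reg4, Il6, Il22, Il17a and the marker genes named beside the members were named after their values were seen. Alternatives were RLE and library-total scaling, DESeq2 1.42.0 (the tool named by the study), limma-voom (limma 3.58.1), no filter, a mean CPM of at least 1, thinning to the shallowest library, Reg3a and Reg3b summed, other samples in the fit and each library left out in turn. The marker sums and the ratios of summed reads were chosen after seeing the data. Promoters were taken for 7 of 7 members from RefSeq (GRCr8), and aligned with Biopython 1.88.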

Additional observations from a re-analysis of the deposited data

Results flagged for a closer look

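Among the control libraries of the Isoflurane group, library 5 had a Reg3a level of 0 CPM, apart from the other three at 0.0417 to 0.0495 CPM. This is the difference between 0 reads and 1 or 2 reads, and the limit used sets apart about 1 group in 20 by chance when values are normally distributed, which read counts of 0 to 2 are not.

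In the related defense genes the interaction test of edgeR, which called 2.72% of all genes tested, called 1 of 13 other antimicrobial proteins (Slpi), 2 of 15 inducing cytokines, receptors and factors (Tnf and Il1r1) and 1 of 12 binding partners and receptors (Lrp2), and none of the other lectins, pentraxins or binders of bacterial wall products. In the marker lists it called Ncf1, a subunit of the phagocyte oxidase, as 1 of 12 neutrophil and monocyte markers (1.33, SE 0.22, adjusted p = 0.0111) and Cd68, a macrophage lysosomal protein, as 1 of 8 Kupffer cell markers (0.56, SE 0.14, adjusted p = 0.0473). Slpi rose by 1.96 log2 more under isoflurane (SE 0.36, adjusted p = 0.0183) and Tnf by 2.12 more (SE 0.55, adjusted p = 0.0403). Il1r1, an interleukin-1 receptor, differed by -0.70 (SE 0.17, adjusted p = 0.0455) and Lrp2 by -1.03 (SE 0.18, adjusted p = 0.0143). Slpi averaged 51.3 ± 23.04 CPM in Isoflurane + sepsis and 6.38 ± 0.859 in Isoflurane, against 21.2 ± 3.76 in Propofol + sepsis and 10.2 ± 1.54 in Propofol. Lrp2 averaged 3.41 ± 0.722 and 11.8 ± 1.34 CPM under isoflurane, against 3.60 ± 0.230 and 6.15 ± 0.230 under propofol. Il1r1 averaged 269.5 ± 59.6 and 411.4 ± 45.5 CPM under isoflurane, against 351.4 ± 21.2 and 329.8 ± 5.26 under propofol. Tnf averaged 1.42 ± 0.332 and 0.0801 ± 0.0440 CPM under isoflurane, against 2.50 ± 0.808 and 0.656 ± 0.172 under propofol, with only 9 reads over Isoflurane. Its level was lower under isoflurane in control liver, at -2.95 (edgeR adjusted p = 0.000211), and in septic liver, at -0.83 (0.0259). Under 24 alternatives the call was lost 14 times for Tnf and 15 times for Il1r1, and not for Slpi or Lrp2.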

How the results depend on the processing

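The log2 fold change of Reg3a under isoflurane moved from 6.63 to 7.23 after thinning. The direction of the sepsis contrasts of all members held under every alternative that gave a value. Under isoflurane 30 to 36 genes of the other lists were called (32 in the main fit), and under propofol 26 to 30 (28). No alternative called a member in the interaction. No paired analysis was possible because the groups share no replicate numbers.

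Between the control groups the count of members called was 1, and 2 (Lcn2 and Reg3b) with library totals alone, with DESeq2 and with only those libraries in the fit, and 1 to 2 with 1 library left out. Between the septic groups it was 0, and 1 (Lcn2) with library totals alone, and 0 to 2 with 1 library left out. The difference in the Reg3b share was 3.75 to 6.01 percentage points with 1 library left out. Tnf and Il1r1 often lost their interaction call, with adjusted p-values of 0.00975 to 0.105 and 0.00476 to 0.0966 over the alternatives, while Slpi (up to 0.0494) and Lrp2 (up to 0.0400) kept theirs in all. The cause of these shifts was not tested.

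Differences near 0 changed sign. The Ptx3 interaction was -0.00151 with library totals, -0.00727 with DESeq2, -0.40 with limma-voom and -0.00130 with no filter. The Reg3g interaction was 0.0723 with DESeq2 and 0.035 after thinning, and that of Camp -0.44 after thinning. With 1 library left out, interactions ran from -0.38 to 0.53 for Reg3a, -1.04 to 1.32 for Reg3g, -0.96 to 0.34 for Ptx3 and -0.20 to 0.72 for Camp. The septic difference ran from -0.66 to 0.0243 for Reg3a and from -0.22 to 0.29 for Reg3b, and the control difference from -1.94 to 0.41 for Reg3g and from -0.0502 to 0.71 for Pglyrp1.

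Control reads of Reg3a, Reg3g, Ptx3 and Camp were 0 to 8 per library, which limits every fold change and interaction of these genes. TMM factors were 0.920 to 0.979 in isoflurane and 1.02 to 1.09 in propofol libraries, so contrasts between anesthetics lean on the scaling more than sepsis contrasts do.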
